A study of Mus musculus with 6 samples.

Results

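The genes described here include the 5 subunits of the transcription factor NF-kB (Nfkb1, Nfkb2, Rel, Rela and Relb). The other 5 are grouped here as its inhibitors (Nfkbia, Nfkbib, Nfkbie, Nfkbiz and Tnfaip3). All 10 genes were taken by name from the table of raw read counts, where they were found among 56393 genes. RNA sequencing was done on mouse cells that the labels call primary vascular smooth muscle cells (VSMC), grown in medium with serum and given no further treatment. The 3 KO libraries were from cells knocked out for Nono, whose protein binds RNA and DNA in paraspeckles, and the 3 WT libraries from wild-type cells. No source used here gives the way Nono was deleted, the strain, the age or whether replicates were separate animals or cultures; every p-value therefore reflects the spread among the libraries alone, which may be technical. The study's question is how loss of Nono changes gene expression in these cells, in the setting of vascular calcification.

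NF-kB is a family of dimers built from Rel proteins that share a DNA-binding Rel homology domain. In resting cells, IkB proteins hold the dimers in the cytoplasm; inflammatory signals activate the IkB kinase, IkB is ubiquitinated and degraded, and the dimers enter the nucleus and bind kB sites. Rela, Rel and Relb encode the subunits with an activation domain, while Nfkb1 and Nfkb2 encode the precursors p105 and p100, which are processed to p50 and p52 and, before processing, act as inhibitors themselves. Nfkbia, Nfkbib and Nfkbie encode the classical inhibitors IkB alpha, beta and epsilon. Nfkbiz encodes the nuclear protein IkB zeta, which works with p50 on a subset of inflammatory genes, and Tnfaip3 encodes A20, a ubiquitin-editing enzyme that shuts signalling down upstream. In the vessel wall, NF-kB is known for driving chemokines and adhesion molecules in smooth muscle cells under inflammatory stimulation.

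Several members are themselves NF-kB targets, and their promoters are shown for that reason. RefSeq promoter sequences of GRCm38.p6 were matched for 7 of the 10 members by symbol, all except Nfkb1, Relb and Nfkbiz, and the 250 bases before each start were searched on both strands for the kB consensus, a motif of 10 bases. The consensus reads 3 G, 1 purine, any 2 bases, 2 pyrimidines and 2 C. Printed are the 130 bases that end at the base before the start, 5′ to 3′ on the gene's strand, with matches in capitals.
Nfkb2: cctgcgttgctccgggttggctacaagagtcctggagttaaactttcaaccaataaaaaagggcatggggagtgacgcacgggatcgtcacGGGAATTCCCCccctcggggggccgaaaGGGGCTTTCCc
Rel: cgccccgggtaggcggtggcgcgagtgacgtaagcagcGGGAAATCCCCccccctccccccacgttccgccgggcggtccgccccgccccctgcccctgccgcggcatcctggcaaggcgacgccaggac
Rela: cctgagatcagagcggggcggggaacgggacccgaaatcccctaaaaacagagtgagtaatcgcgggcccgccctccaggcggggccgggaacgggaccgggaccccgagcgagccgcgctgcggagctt
Nfkbia: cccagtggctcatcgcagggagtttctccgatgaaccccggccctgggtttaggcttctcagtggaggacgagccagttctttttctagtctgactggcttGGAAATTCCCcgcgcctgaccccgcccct
Tnfaip3: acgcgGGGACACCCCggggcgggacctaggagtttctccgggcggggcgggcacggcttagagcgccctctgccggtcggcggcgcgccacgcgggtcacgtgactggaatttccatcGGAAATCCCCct
The windows lie at chr19:46304607-46304736 (plus strand, the first of 3 listed starts of Nfkb2), chr11:23770970-23771099 (minus strand, Rel), chr19:5637411-5637540 (plus strand, Rela), chr12:55492648-55492777 (minus strand, Nfkbia) and chr10:19015411-19015540 (minus strand, the first of 2 listed starts of Tnfaip3). Nfkb2 has matches that begin 39 and 11 bases before its first start, the first of them overlapping a second match on the other strand that begins 38 bases before it. In Rel, overlapping matches begin 92 and 91 bases before the start. Nfkbia has a match on the opposite strand 29 to 20 bases before its start, and Tnfaip3 has matches 125 and 12 bases before it. Nfkbie also has 1 match, while none was found before the starts of Rela and Nfkbib. Thus 5 of the 7 members held a match, against 8.23% of 27025 genes in the same table (7.25% of 32851 promoters). A looser pattern of 3 G, any 5 bases and 2 C, which includes every consensus match, was found for 6 of the 7 members and for 48.65% of all genes. Because several members are known NF-kB targets, their share is no separate evidence. These are matches of letters and do not show binding.

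Total counts lay between 57295800 and 61670083 per KO library and between 56529170 and 60864603 per WT library, and log2 CPM (read counts scaled to library size by TMM, as CPM is used throughout) correlated across genes at 0.979 to 0.983 within a genotype and at 0.804 to 0.809 between genotypes. Nono itself was at 54.0 ± 2.55 CPM in KO and 514.9 ± 11.0 CPM in WT (SD, n = 3 each). The transcriptomes differed broadly: of 18732 genes tested, 69.3% were called at an adjusted p of 0.05, with 35.1% higher in KO and 34.2% lower. Other differences separated the same libraries. The 4 Y-linked genes Ddx3y, Eif2s3y, Kdm5d and Uty summed to 149.9 to 163.3 CPM in KO and to 0 to 0.0795 CPM in WT, and this difference cannot be told apart from genotype. All 7 fibroblast markers were called higher in KO, with summed levels of 10900 to 11810 CPM in KO and 887 to 1036 CPM in WT. Of 8 contractile smooth muscle markers 5 were higher and 2 lower, summing to 244.7 to 249.0 CPM in KO and 67.5 to 76.5 CPM in WT; Acta2 was at 161 CPM in KO and 16.4 CPM in WT, and Tagln at 15.01 CPM in KO and 0.859 CPM in WT. Cnn1 was at 3.49 CPM in KO and 0.0212 CPM in WT. Myh11, the smooth muscle myosin, was at 0.219 CPM in KO and 0.467 CPM in WT. Lmod1 was at 7.52 CPM in KO and 1.41 CPM in WT, and Smtn at 58.1 CPM in KO and 47.8 CPM in WT. The 2 called lower were Des, at 0.848 CPM in KO and 4.29 CPM in WT, and Myocd, at 0 CPM in KO and 0.428 CPM in WT. Cnn1 and Myh11 are thus near 0 in WT, while Smtn is not. Myh11 is near 0 in KO too, and the cell type is known from the labels only. Of 12 macrophage and leukocyte markers, Ptprc, Adgre1, Itgam, Cd3e and Ms4a1 were at 0 counts in all 6 libraries; the list summed to 72.6 to 88.5 CPM in KO and to 21.2 to 23.8 CPM in WT. Its 4 tested genes moved in both directions. Cd14 (74.5 CPM in KO and 12.4 CPM in WT), Csf1r (3.29 CPM in KO and 0.157 CPM in WT) and Cd68 (2.23 CPM in KO and 1.08 CPM in WT) were called higher, and Lyz2 (0.213 CPM in KO and 8.54 CPM in WT) was called lower. Endothelial markers summed to at most 1.93 CPM in KO and 3.70 CPM in WT, with Tie1 at 0 in all libraries. Apart from these values, the part of cell composition or sex in the results below was not tested.

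In KO cells 4 of the 5 subunit genes were lower, by 1.89- to 3.46-fold, and Nfkb1 was at nearly the level of WT. The inhibitors did not move as a group: Nfkbiz was 8.48-fold and Nfkbia 2.53-fold higher, Nfkbib was 1.41-fold lower, and Nfkbie and Tnfaip3 did not pass the test. In all, 2 of the 10 members were called higher and 5 lower, or 70.0%, a share near the 69.3% of all tested genes. The tested genes include many at low counts. Among genes with at least 1 CPM in 3 libraries, 5828 of 14397 were called higher and 5565 lower, a larger share than 69.3%. The members kept 2 higher and 5 lower with that filter, so their share was below that of genes with such levels. In 7 members the groups of 3 did not overlap, as in 75.5% of tested genes. The median log2 fold change of the members was -0.45 and that of all tested genes 0.031. With scaling by total counts that median moves to -0.099, and the 7 members keep their calls and directions. Because these are bulk samples, fewer cells that express a gene and less RNA of it per cell cannot be told apart.

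**Figure D1:**
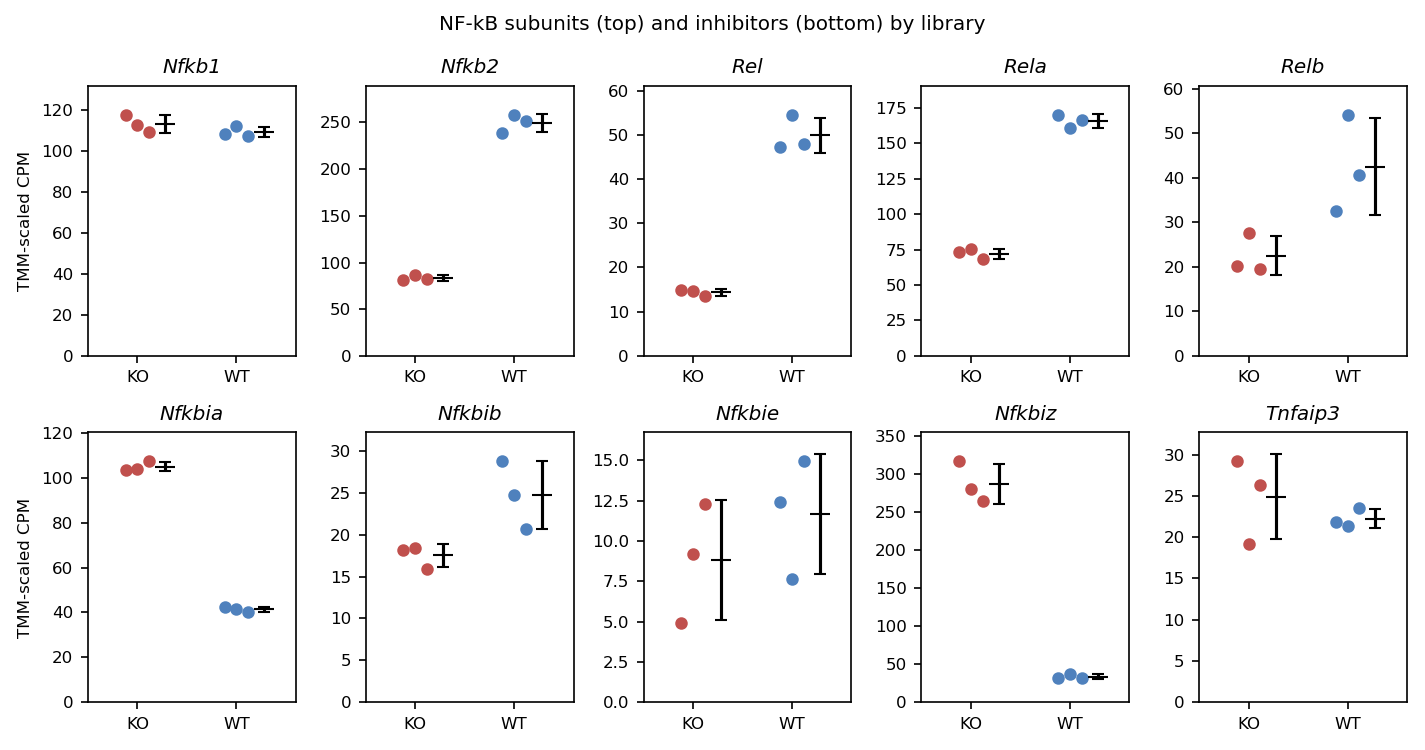
TMM-scaled CPM of the 10 members, 1 panel per gene on its own linear axis from 0, with KO libraries in red on the left and WT libraries in blue on the right; bars give mean and SD of 3 libraries. The groups separate for Nfkb2, Rel, Rela, Relb, Nfkbia, Nfkbib and Nfkbiz and overlap for Nfkb1, Nfkbie and Tnfaip3.

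Rela encodes p65, the main activating subunit of the canonical pathway. It was at 73.1, 75.3 and 68.4 CPM in the KO libraries and at 170.0, 160.5 and 166.5 CPM in the WT libraries. All 3 KO values lie below all WT values, with a log2 fold change of -1.20 ± 0.05 (SE; edgeR quasi-likelihood test, adjusted p = 2.43e-07). Rel encodes c-Rel, best known in lymphocytes and myeloid cells. Its level was 14.9, 14.8 and 13.5 CPM in KO and 47.2, 54.5 and 47.9 CPM in WT. The KO libraries are again clear of the WT libraries, and the log2 fold change of -1.79 ± 0.09 (SE, edgeR adjusted p = 3.81e-07) was the largest decrease among the members. Of the 12 macrophage and leukocyte markers, 4 were tested: Cd14, Csf1r and Cd68 were higher in KO, and the myeloid lysozyme gene Lyz2 was lower. The part of such cells in the level of Rel was not tested.

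Nfkb2, the gene of p100 and p52 of the noncanonical pathway, was at 80.9, 86.9 and 82.4 CPM in KO and at 238, 258 and 251.5 CPM in WT. The groups did not overlap, and the fitted difference was 2.99-fold (log2 fold change -1.58 ± 0.05 SE, edgeR adjusted p = 4.25e-08). Relb, whose product pairs mainly with p52 or p100, was at 20.3, 27.5 and 19.6 CPM in KO and at 32.6, 54.2 and 40.8 CPM in WT. KO replicate 2 and WT replicate 2 were the highest of their groups, and the highest KO value still lay under the lowest WT value. Its log2 fold change was -0.92 ± 0.21 (SE, edgeR adjusted p = 0.00627), which did not pass when tested against a fold of 1.5 (adjusted p = 0.0568). Nfkb1, the gene of p105 and p50, was at 117, 113 and 109 CPM in KO and at 108, 112 and 107 CPM in WT. Its groups overlap, and the log2 fold change of 0.05 ± 0.05 (SE, edgeR adjusted p = 0.394) turns to -0.08 with scaling by total counts and in the deposited FPKM, again without passing the test.

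The 2 precursor genes therefore differed in how far KO lay from WT. Counted within each library, where no scaling between libraries enters, Nfkb2 had 0.689, 0.771 and 0.756 reads per Nfkb1 read in KO and 2.21, 2.30 and 2.35 in WT. Per Nfkb1 read, Rela had 0.640 ± 0.0247 reads in KO and 1.52 ± 0.0772 in WT (SD, n = 3 each). For Rel the same ratio was 0.127 ± 0.00341 in KO and 0.457 ± 0.0261 in WT (SD, n = 3 each). Rel was also lower relative to Rela, with 0.199 ± 0.00383 Rel reads per Rela read in KO and 0.302 ± 0.0333 in WT (SD, n = 3 each). Of 10 such ratios, chosen after the values had been seen, 9 did not overlap between the groups. Among single tested genes 75.5% did not overlap, and the share over other pairs of genes was not computed. Each of the 9 had a 2-sided exact permutation p of 0.1 (0.111 after Benjamini-Hochberg adjustment over the 10). That is the smallest p that 3 against 3 libraries allow. The ratios use the same counts as the members' own differences and are no separate evidence.

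In FPKM, the authors' fragment counts scaled for gene length and depth, which allow levels of different genes to be set side by side, the subunits summed to 90.3, 97.6 and 88.3 in KO and to 180.1, 200.4 and 188.6 in WT. Nfkb1 made up 38.5 ± 2.15% of that sum in KO and 19.7 ± 0.236% in WT (SD, n = 3 each). Nfkb2 made up 24.3 ± 1.01% in KO and 37.6 ± 0.284% in WT, and Rela 24.97 ± 0.288% in KO and 30.1 ± 1.99% in WT (SD, n = 3 each). Rel was the smallest part in both groups, 1.75% in KO and 3.21% in WT. Relb took 9.06% to 13.4% in KO and 7.74% to 11.5% in WT, so its share overlapped. The shares are descriptions with no test, and a smaller share of 1 gene raises those of the others.

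**Figure D2:**
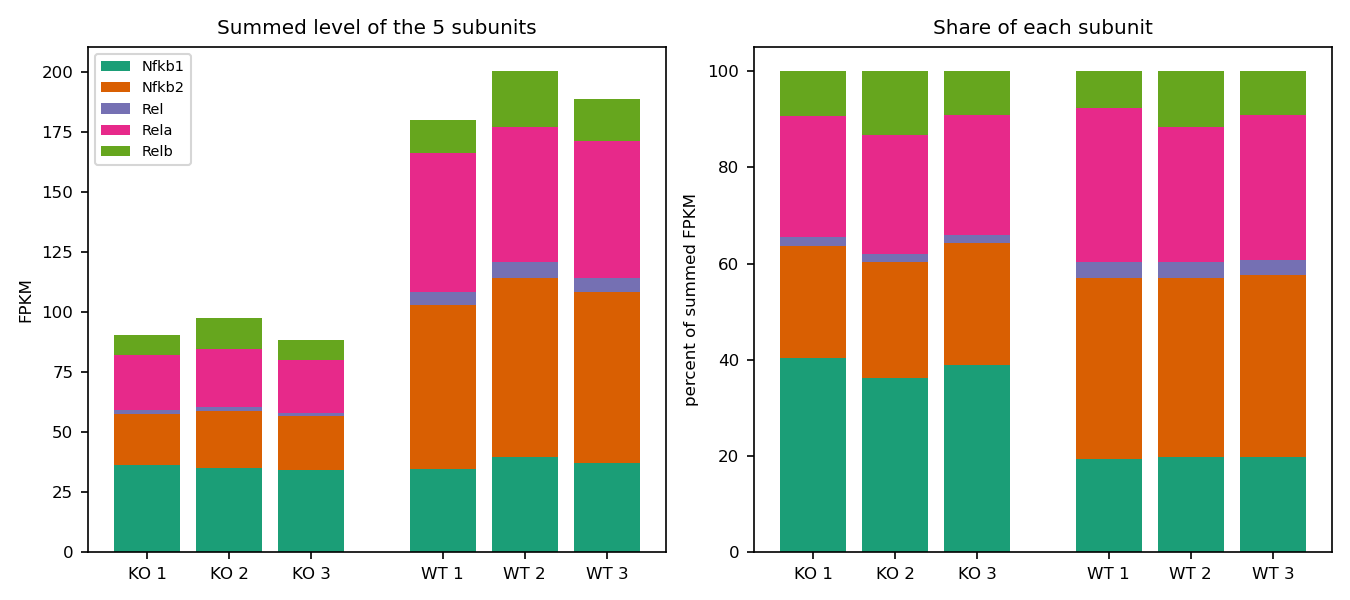
Deposited FPKM of the 5 subunits stacked for each library (left) and as percent of their sum (right), with KO libraries left of WT libraries. The Nfkb1 segment is of like height in all libraries on the left, and on the right it covers 38.5% of the sum in KO and 19.7% in WT on average.

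Among the genes grouped here as inhibitors, Nfkbiz stood out. It was at 317, 280.6 and 265 CPM in KO and at 31.7, 37.3 and 32.7 CPM in WT, with a log2 fold change of 3.08 ± 0.09 (SE, edgeR adjusted p = 2.87e-08). The lowest KO library was well above the highest WT library, and 87.2% of tested genes had a smaller change in either direction. Nfkbia was at 104, 104 and 107 CPM in KO and at 42.4, 41.7 and 40.3 CPM in WT. Its coefficient of variation was 1.91% in KO, the lowest of the members there, and 2.60% in WT, where that of Nfkb1 was lower (2.45%). The log2 fold change was 1.34 ± 0.05 (SE, edgeR adjusted p = 9.97e-08).

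The other inhibitors showed smaller differences or none that passed. Nfkbib was at 18.2, 18.4 and 15.95 CPM in KO and at 28.7, 24.7 and 20.6 CPM in WT. The groups come close but do not overlap, and the log2 fold change was -0.49 ± 0.13 (SE, edgeR adjusted p = 0.00956; adjusted p = 0.694 against a fold of 1.5). Nfkbie, at 4.94, 9.18 and 12.3 CPM in KO and 12.4, 7.65 and 14.9 CPM in WT, had the widest spread of all members, with a 2.49-fold range among KO libraries alone. Its log2 fold change of -0.41 ± 0.37 (SE) did not pass (edgeR adjusted p = 0.371). Tnfaip3 was at 29.2, 19.2 and 26.3 CPM in KO and at 21.9, 21.3 and 23.6 CPM in WT. KO replicate 2 lies below all WT libraries and the other two above them, and the difference of 0.16 ± 0.15 (log2, SE) did not pass (edgeR adjusted p = 0.360). Without KO replicate 2 it was 0.32 with an adjusted p of 0.0214, and from the deposited FPKM it was -0.06.

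**Figure D3:**
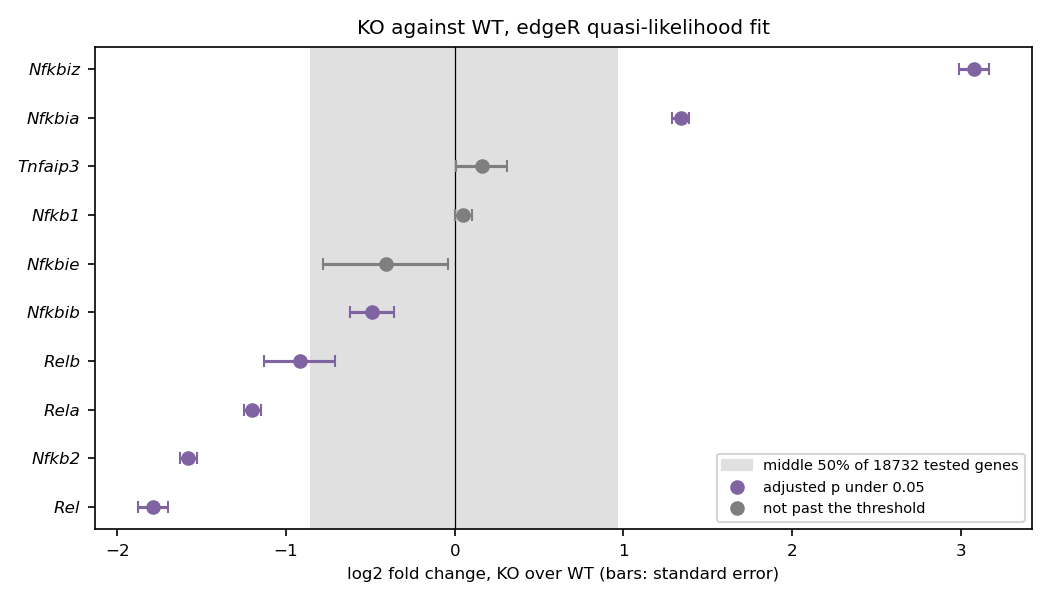
Log2 fold change, KO over WT, of each member in the edgeR fit, with standard errors, ordered from the highest to the lowest; purple points passed an adjusted p of 0.05 and grey points did not. The shaded band spans the quartiles of all 18732 tested genes, -0.85 to 0.96; Nfkbiz and Nfkbia lie above it, and Rela, Nfkb2, Rel and Relb (at -0.92) below it.

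Inhibitor and subunit transcripts changed places in the order of levels. In KO the order by FPKM was Nfkbiz (63.3 ± 4.40), Nfkbia (56.1 ± 1.10), Nfkb1 (35.4 ± 1.06), Rela (22.99 ± 1.02) and Nfkb2 (22.3 ± 1.23), of which only the ranges of Rela and Nfkb2 overlap as neighbours (SD, n = 3). Below them followed Nfkbib (11.7 FPKM) and Relb (9.79 FPKM), with overlapping ranges, and then Tnfaip3 (5.17 FPKM), Nfkbie (2.81 FPKM) and Rel (1.61 FPKM). In WT the order was Nfkb2 (71.3 ± 3.37), Rela (56.9 ± 0.728), Nfkb1 (37.3 ± 2.38) and Nfkbia (24.5 ± 0.543), without overlap between neighbours (SD, n = 3), then Relb (18.1 FPKM) and Nfkbib (17.6 FPKM), which overlap. Nfkbiz (8.68 FPKM) came next, and the last, Rel (6.10 FPKM), Tnfaip3 (5.34 FPKM) and Nfkbie (3.77 FPKM), overlap with their neighbours. The sum of the 3 classical inhibitors was 68.3, 71.1 and 72.5 FPKM in KO and 49.4, 45.5 and 42.6 FPKM in WT, in the opposite direction to the subunits' sum. Nfkbia alone carried this difference, since Nfkbib (11.7 FPKM in KO and 17.6 FPKM in WT) and Nfkbie (2.81 FPKM in KO and 3.77 FPKM in WT) were both lower on average in KO.

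Within libraries, Nfkbia had 1.42, 1.38 and 1.57 reads per Rela read in KO and 0.250, 0.260 and 0.242 in WT. This is a log2 difference of 2.54 ± 0.06 (SE), the largest of the 10 ratios. Nfkbib, although lower in KO by itself, had 0.242 ± 0.00802 reads per Rela read in KO and 0.149 ± 0.0230 in WT (SD, n = 3 each). For Nfkbie per Rela the groups overlapped (2-sided exact permutation p = 0.3). Nfkbiz had 2.74 ± 0.299 reads per Nfkbia read in KO and 0.818 ± 0.0744 in WT (SD, n = 3 each), while Tnfaip3 had 0.237 ± 0.0490 reads per Nfkbia read in KO and 0.538 ± 0.0411 in WT (SD, n = 3 each).

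**Figure D4:**
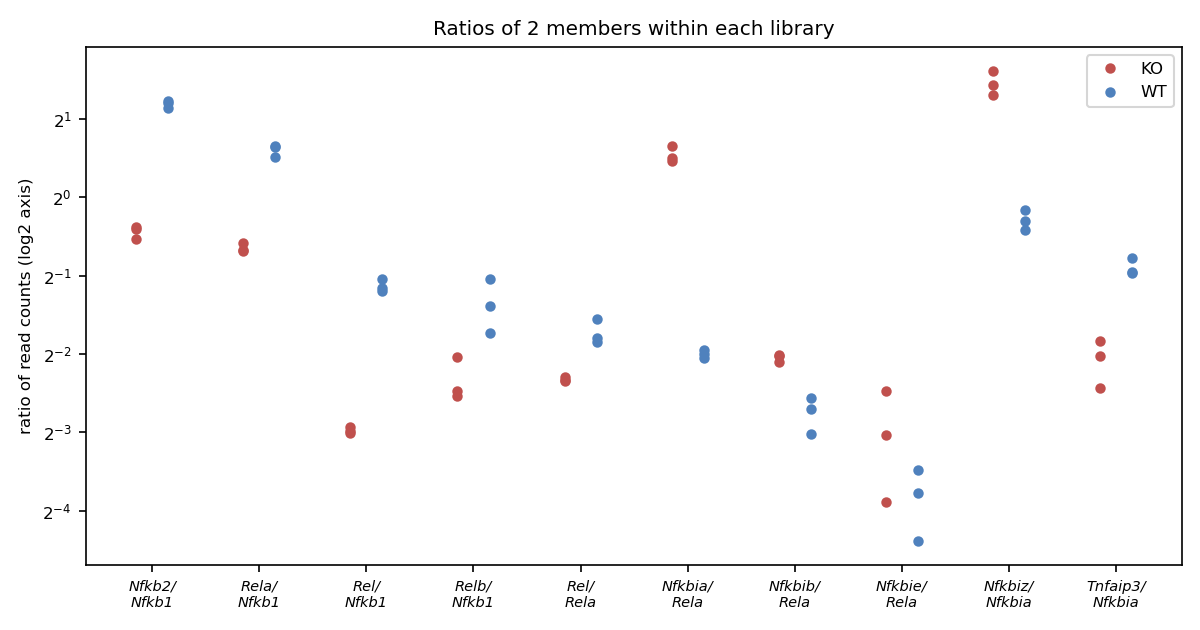
Ratio of the read counts of 2 members within each library on a log2 axis, with KO libraries in red on the left and WT libraries in blue on the right of each pair. Only Nfkbie per Rela overlaps between the groups; Nfkbia per Rela is 1.38 to 1.57 in KO and 0.242 to 0.260 in WT.

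No source used here says whether the counting used strand. In GENCODE M21, 8 members share no exon bases with another gene. Nfkb2 shares 299 exon bases (6.52%) with Psd on the opposite strand, and Psd fell too, with 570 to 620 counts in KO and 3200 to 3662 counts in WT. The gap between the highest KO and the lowest WT count of Nfkb2 was 10190. What part of the Nfkb2 counts came from Psd reads was not tested. Nfkb2 also shares 531 bases (11.58%) with the antisense transcript AC114539.1, at 304 to 348 counts in KO and 169 to 241 in WT. Nfkbib shares 42 bases (1.94%) with Sirt2, at 3374 to 3969 counts in KO and 1436 to 1951 in WT, and 314 bases (14.48%) with Ccer2, which had at most 4 counts in KO and 9 in WT.

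Around the members, 85 of 94 listed genes of the pathway were tested, of which 48 were higher and 25 lower in KO. This is 85.88% called, beside 69.3% of all tested genes, and the lists were drawn up with earlier results known. Among all genes with at least 1 CPM in 3 libraries the share called was larger than 69.3% (5828 higher and 5565 lower of 14397). The lists were not set beside genes of like level, here or below. Signal enters through the kinases and adaptors, of which 12 of 21 were higher, 7 lower and 2 not called, with a median log2 fold change of 0.47. Ikbkg, the scaffold NEMO of the IkB kinase, was at 105 ± 5.37 CPM in KO and 33.2 ± 2.87 CPM in WT, and Ikbke, an IkB kinase relative, at 73.1 ± 3.21 CPM in KO and 11.8 ± 2.19 CPM in WT (SD, n = 3 each). Both rose (edgeR adjusted p = 3.10e-07 and 4.30e-07). The catalytic subunit gene Chuk (IKK alpha) fell to 80.4 ± 3.51 CPM in KO, against 171 ± 2.56 CPM in WT, and the TNF receptor adaptor Traf2 to 47.6 ± 1.19 CPM in KO, against 97.4 ± 2.31 CPM in WT (SD, n = 3 each; edgeR adjusted p = 2.67e-07 and 4.43e-07).

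The ligase that marks IkB for degradation changed little per gene: of 5 listed components, 3 were lower and 2 higher. This is 100% called, beside 69.3% of all tested genes. Its substrate receptors Btrc and Fbxw11 fell by 0.52 ± 0.07 and by 0.40 ± 0.04 on the log2 scale (SE; edgeR adjusted p = 0.000175 and 4.83e-05). Skp1 rose by 0.44 (edgeR adjusted p = 1.53e-05). Rbx1 was higher by 0.18 (log2, edgeR adjusted p = 0.0106), a call lost with scaling by total counts and a direction that turned in the deposited FPKM (-0.06).

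Of 11 receptors that activate NF-kB, 10 were tested, with 6 higher and 2 lower (80.0% called, beside 69.3% of all tested genes). Only 1 was lower without KO replicate 1, KO replicate 3 or WT replicate 2. Against a fold of 1.5, 3 receptors were called in all. Tnfrsf1a, the main TNF receptor, was at 294 ± 13.8 CPM in KO and 116 ± 2.80 CPM in WT, and Il1rap, the IL-1 co-receptor, at 50.5 ± 0.462 CPM in KO and 30.6 ± 1.20 CPM in WT (SD, n = 3 each; edgeR adjusted p = 7.62e-08 and 1.25e-05). Tnfrsf12a, the TWEAK receptor, fell to 36.4 ± 3.56 CPM in KO, against 157 ± 14.7 CPM in WT (SD, n = 3 each; edgeR adjusted p = 2.44e-07). Tlr4, the receptor for bacterial lipopolysaccharide, was at 66.4, 67.8 and 65.6 CPM in KO and at 25.9, 2.57 and 4.72 CPM in WT. The groups did not overlap, but WT replicate 1 stood far above the other WT libraries, and the difference did not pass (edgeR adjusted p = 0.0617), whereas it passed with limma on FPKM (adjusted p = 0.00398) and with DESeq2; Tlr4 was named after its values were seen.

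Only 3 of 10 ligands passed the filter on low counts, and all 3 were called higher, beside 35.1% of all tested genes. Of these, Tnfsf11 was at 40, 41 and 41 counts in KO and at 0 in WT, so it passed the filter through KO alone. Ltb, at 0 counts in KO and at 5, 8 and 17 in WT, was removed by the filter. Without a filter, 3 ligands were called higher and 1 lower. Tnf was at 0 counts in all libraries and Il1b at 0.0340 CPM in KO and 0.0264 CPM in WT. Tnfsf12, the gene of TWEAK, was at 31.3 ± 5.04 CPM in KO and 9.97 ± 0.917 CPM in WT (SD, n = 3 each; edgeR adjusted p = 8.93e-06).

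Of 15 other brakes and atypical IkB genes, 6 were higher, 4 lower and 5 not called (66.67% called, beside 69.3% of all tested genes). Nfkbid, among the higher, was at 0 counts in WT and passed the filter through KO alone. Zc3h12a, the RNase Regnase-1 that degrades inflammatory mRNAs, was at 60.6 ± 3.49 CPM in KO and 9.997 ± 1.13 CPM in WT (SD, n = 3 each; edgeR adjusted p = 1.13e-07). Pdlim2, which promotes degradation of nuclear p65, was at 112 ± 3.76 CPM in KO and 19.3 ± 1.95 CPM in WT (SD, n = 3 each; edgeR adjusted p = 4.44e-08). Rnf11, a partner of A20, was 2.03-fold lower and Otulin, a linear ubiquitin deubiquitinase, 1.79-fold lower (edgeR adjusted p = 1.86e-07 and 3.67e-06).

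Genes known as NF-kB targets went both ways: of 32 listed, 31 were tested, 19 were higher, 9 lower and 3 not called. This is 90.32% called, beside 69.3% of all tested genes. The targets' median log2 fold change was 1.25, and that of all tested genes 0.031. Of the called targets, Ptx3 had 0 counts in WT, and Ccl20 and Csf2 had 0 counts in KO. Low in WT were Nos2 (0, 24 and 8 counts), Icam1 (2, 0 and 9) and Cxcl2 (0, 10 and 4). Traf1 was low in KO (14, 44 and 5 counts). Each of these genes passed the filter only because of the group where it is higher. They are part of the counts and the median given above. The acute-phase gene Saa3 was at 1549 ± 78.0 CPM in KO and 34.7 ± 1.75 CPM in WT, and the monocyte chemokine Ccl2 at 168 ± 3.98 CPM in KO and 17.4 ± 0.810 CPM in WT (SD, n = 3 each; edgeR adjusted p = 5.30e-10 and 2.80e-09). Ccl5, a T cell chemokine, fell to 9.11 ± 1.21 CPM in KO, against 95.8 ± 10.8 CPM in WT, and Cxcl10, which is also interferon-induced, to 7.66 ± 0.804 CPM in KO, against 74.8 ± 3.03 CPM in WT (SD, n = 3 each; edgeR adjusted p = 1.01e-07 and 2.42e-08). Many of these genes are also known to be controlled by other factors.

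**Figure D5:**
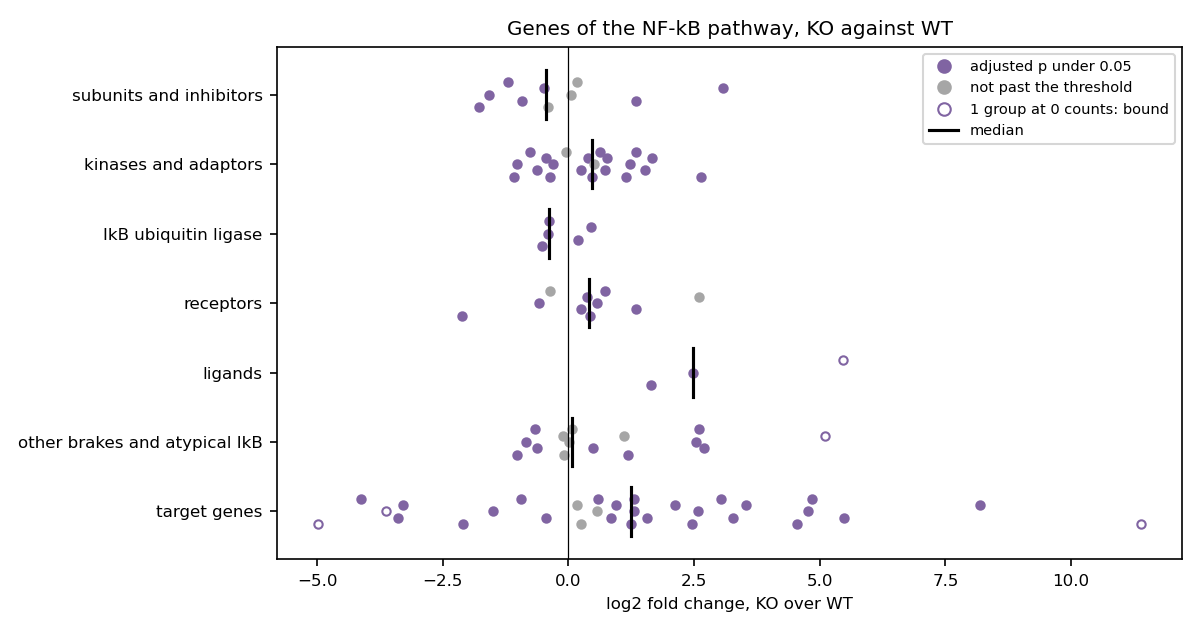
Log2 fold change, KO over WT, of each tested gene of the NF-kB pathway by list (rows), with the list median as a black bar; purple points passed an adjusted p of 0.05, grey points did not, and open points are lower bounds on the size of the change for genes with 1 group at 0 counts. The 10 subunits and inhibitors have a median of -0.45 and the target genes one of 1.25, with genes on both sides of 0 in each of these rows.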

How the data were processed

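For 6 libraries the authors deposited raw counts of reads and FPKM values, listed by Ensembl gene; samples were grouped by title. CASAVA 1.8, HISAT2, SAMtools 1.3.1, edgeR and build GRCm39 are named, per the submitters' processing notes, without roles; the counter, strand setting and annotation release: not given in the sources used here. Symbols came from GENCODE M21, which matched 55394 of 56393 genes (98.23%; Skp1 is listed there as Skp1a); it and the promoter table are of build GRCm38, so no coordinates of the deposited table were used.

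Counts were filtered with filterByExpr (18732 genes kept), scaled with TMM factors (0.952 to 0.960 in KO, 1.04 to 1.06 in WT) and tested over all 6 libraries in edgeR 4.0.16 (R 4.3.3) by its quasi-likelihood test with robust dispersions, without covariates, with Benjamini-Hochberg adjustment over all tested genes. The fit was also run on simulated counts in which few genes changed. That run does not probe the scaling or the calls in data that differ as broadly as these. Members, lists and ratios were chosen with earlier results of these data known. Named in all cases were the members, Nono, the smooth muscle markers Acta2, Tagln, Cnn1 and Myh11 and the Y-linked sum. Per list, the rule added up to 2 higher and 2 lower genes with the smallest adjusted p, at least 5 CPM and no overlap. Chosen after their values were seen were Tnf, Il1b, genes with 1 group at 0 or low counts and the leukocyte markers. So were Smtn, Lmod1, Des and Myocd, overlapping genes and those of the closing section. No 2 replicates agreed within sampling noise (chi-square over its degrees of freedom 22.0 to 34.1). The floor for a gene at 0 was 3 counts over the group (0.0174 CPM in KO, 0.0161 CPM in WT), which covers counting error only. Alternatives used DESeq2 1.42.0, limma 3.58.1 (voom, and log2 of FPKM plus 0.1 or 1), other scalings, filters and thresholds, a replicate block, and leaving out each library.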

Additional observations from a re-analysis of the deposited data

How the results depend on the processing

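Across 20 alternatives, Nfkb2, Rel, Rela, Nfkbia and Nfkbiz kept their direction and call in all. Their log2 fold changes ranged from -1.71 to -1.55 for Nfkb2, -1.92 to -1.44 for Rel, -1.33 to -1.16 for Rela, 1.17 to 1.36 for Nfkbia and 2.73 to 3.16 for Nfkbiz. Relb and Nfkbib lost their calls only against a fold of 1.5. Members called numbered 7 in the main test, 5 against a fold of 1.5, 7 to 8 with each library left out, and 7 elsewhere. The 8th call was Tnfaip3 without KO replicate 2 (0.32). Against a fold of 1.5, 8649 of all genes and 47 of the pathway genes were called, in place of 12980 and 73. Nfkb1, not called in any setting, turned to -0.08 with scaling by total counts, and to -0.08, -0.07 and -0.08 from FPKM with a pseudocount of 0.1, of 1, and of 0.1 without a filter. Tnfaip3 turned to -0.06, -0.05 and -0.06 and Rbx1 to -0.06 in each of those FPKM settings; the cause was not tested. Computed from CPM in place of FPKM, the share of Rel among the subunits differed by -3.37 percentage points (KO minus WT) in place of -1.46, since CPM is not corrected for length. The share of Relb differed by 1.08 percentage points, and by -0.335 without KO replicate 2 to 2.108 without WT replicate 2. The replicate number as a block gave 12233 calls, in place of 12980, and no member's call changed. Same-numbered libraries did not deviate together (correlations -0.024, 0.018 and -0.009). This shows no pairing by number but cannot exclude one. Among receptors the block gave 7 higher and 1 lower in place of 6 and 2, and leaving out WT replicate 1 gave 7 higher. Spread between replicates, widest in Nfkbie, limits the smaller differences.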

Other observations

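The genes given here were picked from the pathway lists after their values were seen, and 69.3% of all tested genes were called, so they are single values and stand for no group. Map3k14, the kinase NIK that starts the processing of p100, was at 54.9 ± 3.599 CPM in KO and 35.6 ± 1.69 CPM in WT (SD, n = 3 each; edgeR adjusted p = 8.69e-05). Of the genes whose products keep NIK low, Traf3 was 1.69-fold (adjusted p = 0.0709 by limma on FPKM) and Traf2 2.05-fold lower, while Birc2 was 2.22-fold and Birc3 5.47-fold higher (edgeR adjusted p = 0.000564, 4.43e-07, 5.01e-06 and 1.95e-05). Bcl3, an atypical IkB that binds p50 and p52, was at 78.2 ± 3.78 CPM in KO and 12.1 ± 1.79 CPM in WT (SD, n = 3 each; edgeR adjusted p = 1.47e-07).

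Among the listed target genes, the complement gene C3 was at 4463 ± 201 CPM in KO and 190.2 ± 55.2 CPM in WT, and the siderophore-binding Lcn2 at 138 ± 8.002 CPM in KO and 5.06 ± 1.21 CPM in WT (SD, n = 3 each; edgeR adjusted p = 1.65e-05 and 2.41e-07). Nos2, the inducible nitric oxide synthase, was at 50.8 ± 2.96 CPM in KO and at 0, 0.400 and 0.127 CPM in the WT libraries. Ptx3, a long pentraxin, was at 43.4 ± 1.44 CPM in KO (SD, n = 3) and at 0 counts in WT, so at least 2692-fold higher if WT is set to the floor of 3 counts over its 3 libraries. In the other direction, Traf1 was at 0.375 CPM in KO and 6.48 CPM in WT, and Ptgs2, cyclooxygenase 2, was 2.85-fold lower (edgeR adjusted p = 0.000979 and 1.66e-07).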
